A study of Mus musculus with 18 samples.

Results

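MHC class II antigen presentation was followed through 7 genes named for this purpose from the known pathway: the chains *H2-Aa*, *H2-Ab1* and *H2-Eb1*, the invariant chain *Cd74*, the peptide editors *H2-DMa* and *H2-DMb1*, and the transactivator *Ciita*. All 7 were found among the 55487 genes counted. Bulk RNA came from male mice after a 4 h fast. Subcutaneous white fat (sWAT) was taken at 12 weeks, with 4 libraries for each genotype, and brown fat (BAT) at 4 weeks, with 5 for each. Ctrl mice were *Csn8* f/f littermates without Cre, and *Csn8* AKO mice carried the same floxed alleles with Cre driven by the adiponectin promoter, which removes exons 4–6 of *Csn8* (*Cops8*), a subunit of the COP9 signalosome, in adipocytes. Cells other than adipocytes in these tissues therefore keep the gene. The libraries held 15835721 to 23109603 counts in sWAT and 26658593 to 66719937 in BAT. Tissue and age changed together, so a difference between sWAT and BAT cannot be told apart from a difference between 12 and 4 weeks.

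Class II molecules are heterodimers of an alpha and a beta chain that carry peptides of endocytosed proteins to the surface of dendritic cells, B cells and macrophages, where CD4 T cells read them. The invariant chain CD74 guides the new dimer to the endosome, where cathepsins trim it and the H2-DM dimer exchanges its last fragment for antigenic peptide. CIITA, the master regulator of these genes, binds no DNA itself but is recruited to an assembled complex of RFX, NF-Y and CREB at their promoters. In adipose tissue, macrophages and dendritic cells are known carriers of class II, and adipocytes have also been described to express it.

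Levels are given as CPM, the count relative to a library total scaled by TMM over all 18 libraries, and between genes as CPM per kb of exon length. Differences were tested with edgeR's quasi-likelihood test, with p-values adjusted by Benjamini-Hochberg over all genes tested, and a gene was called at an adjusted p under 0.05. In the bulk tissue, more cells that carry class II and more RNA per cell cannot be told apart.

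*Cops8*, the targeted gene, was read over all its exons, so transcripts lacking exons 4–6 and those of unrecombined cells still counted. Its CPM was 31.9, 35.7, 33.7 and 34.2 in sWAT Ctrl libraries 1 to 4 and 32.4, 27.0, 29.8 and 34.9 in sWAT *Csn8* AKO libraries 1 to 4. In BAT it was 38.1, 40.3, 41.5, 38.3 and 46.0 in Ctrl 1 to 5 and 28.4, 30.6, 35.5, 32.2 and 37.4 in *Csn8* AKO 1 to 5. The sWAT groups overlapped, with a log2 fold change of -0.12 (SE 0.11, adjusted p = 0.623), while all BAT *Csn8* AKO libraries lay below the Ctrl libraries, at -0.30 (SE 0.09, adjusted p = 0.0211).

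Among the sWAT libraries, Ctrl 1 and *Csn8* AKO 2 stood apart by lymphocyte genes, and they are shown separately below. *Cd79a*, a signaling chain of the B cell receptor, reached 32.9 CPM in Ctrl 1 and 89.9 CPM in *Csn8* AKO 2, and the 6 other sWAT libraries lay between 0.701 and 2.95 CPM. The B cell gene *Ms4a1* (18.4 and 44.9 CPM) and the T cell gene *Cd3e* (29.7 and 42.9 CPM) were high in the same libraries. *Glycam1*, a mucin of the high endothelial venules of lymph nodes, stood at 20.1 CPM in Ctrl 1 and 77.9 CPM in *Csn8* AKO 2, against at most 0.601 CPM in the other sWAT libraries. *Chst4*, a sulfotransferase of the same venules, had 2.38 CPM in Ctrl 1 and 4.40 CPM in *Csn8* AKO 2 and was at 0 in the other sWAT libraries. *Madcam1* (2.39 CPM) and *Cxcl13* (56.1 CPM) had their highest sWAT levels in *Csn8* AKO 2. The lymph node chemokine *Ccl21a* was at 0 in 16 of the 18 libraries, but it has close copies in the mouse genome and reads that fit several were not counted. The 18 B cell markers summed to 739, 314, 287 and 304 CPM in sWAT Ctrl 1 to 4 and to 429.9, 1534, 413 and 455 CPM in sWAT *Csn8* AKO 1 to 4. To this sum *Ebf1*, also a gene of adipocyte precursors, gave 141 to 201 CPM. The immunoglobulin gene *Ighm* gave 168, 121, 59.5 and 69.1 CPM in Ctrl and 185, 347, 169 and 221 CPM in *Csn8* AKO. In BAT *Cd79a* stood between 0.854 and 3.02 CPM. Ribosomal RNA genes took 47.8% of the counts of sWAT *Csn8* AKO 4 and 31.8% of those of *Csn8* AKO 3, and between 1.80% and 19.8% in the other sWAT libraries. In BAT they took 15.1% in *Csn8* AKO 2 and 10.1% in Ctrl 1, and between 0.863% and 4.10% in the others. With ribosomal RNA genes left out before scaling, edgeR called 0 of the 7 class II genes in sWAT, 7 higher in BAT and 0 in the interaction. Alternatives that kept all libraries or left out the lymphocyte-rich ones, this one among them, called 106 to 1086 of all genes higher in sWAT. In BAT they called 2583 to 4183 higher, and in the interaction 208 to 741.

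The class II genes were far more abundant in sWAT than in BAT. Per kb of exon, in Ctrl sWAT, *Cd74* came first with 368 ± 58.7 CPM per kb (mean ± SD, n = 4), followed by *H2-Ab1* (94.9 ± 22.2), *H2-Aa* (84.5 ± 13.9) and *H2-Eb1* (58.7 ± 10.7). The peptide editors and the regulator were more than 6 times lower than the least abundant chain: *H2-DMb1* stood at 8.54 ± 2.91, *H2-DMa* at 6.05 ± 1.23 and *Ciita* at 4.66 ± 2.05 CPM per kb. Neighbours in this order, *H2-Ab1* with *H2-Aa*, *H2-DMb1* with *H2-DMa* and *H2-DMa* with *Ciita*, differed by less than the larger of their SDs. These SDs include the lymphocyte-rich Ctrl 1. Within each sWAT Ctrl library these pairs kept the order. The per-kb ratio of *H2-Aa* to *H2-Ab1* was 0.820 to 0.970 there, and that of *H2-DMa* to *H2-DMb1* 0.603 to 0.883. Relative to *H2-Ab1*, *H2-DMa* stood at 0.0608 to 0.0684 and *Ciita* at 0.0416 to 0.0604. In Ctrl BAT the order began likewise with *Cd74* (40.5 ± 6.02 CPM per kb, n = 5), then *H2-Aa* (9.85 ± 2.03) and *H2-Ab1* (9.29 ± 1.57), which lay within an SD of each other, and *H2-Eb1* at 2.84 ± 2.65. That last mean rests on Ctrl 5, at 7.56 CPM per kb, while the 4 other Ctrl libraries had 1.43 to 1.96.

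Comparing Ctrl BAT with Ctrl sWAT, all 7 genes were called lower in BAT, where 27.0% of the 22381 genes tested were called lower and 25.7% higher. The log2 difference was -3.24 (SE 0.15, adjusted p = 2.69e-09) for *Cd74*, -3.40 (SE 0.17, adjusted p = 8.24e-09) for *H2-Ab1* and -3.15 (SE 0.17, adjusted p = 7.97e-09) for *H2-Aa*. For *Ciita* it was -2.64 (SE 0.25, adjusted p = 8.33e-06) and for *H2-DMa* -2.40 (SE 0.17, adjusted p = 8.37e-08), the smallest of the 7. No Ctrl BAT library reached the lowest Ctrl sWAT library for any of the 7, a separation in this direction that 21.5% of the genes showed. The median over the 7 was -3.15, against 0.0063 over all genes tested. Without sWAT Ctrl 1 all 7 were still called lower, where 5869 of 23240 genes were called lower and 5835 higher. There *Cd74* was at -3.10 (SE 0.13, adjusted p = 7.80e-10) and *Ciita* at -2.26 (SE 0.14, adjusted p = 2.42e-08). Markers of cells that carry class II were lower in Ctrl BAT as well: 18 of 20 macrophage markers were called lower (median -3.10), 12 of 16 dendritic cell markers (-2.40) and 16 of 18 B cell markers (-4.01), while 2 dendritic cell markers were called higher. Without sWAT Ctrl 1 these were 18 of 20 (-3.15), 11 of 16 (-1.51) and 12 of 18 (-1.71), again with 2 dendritic cell markers higher. Their part in the class II difference was not tested.

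**Figure D1:**
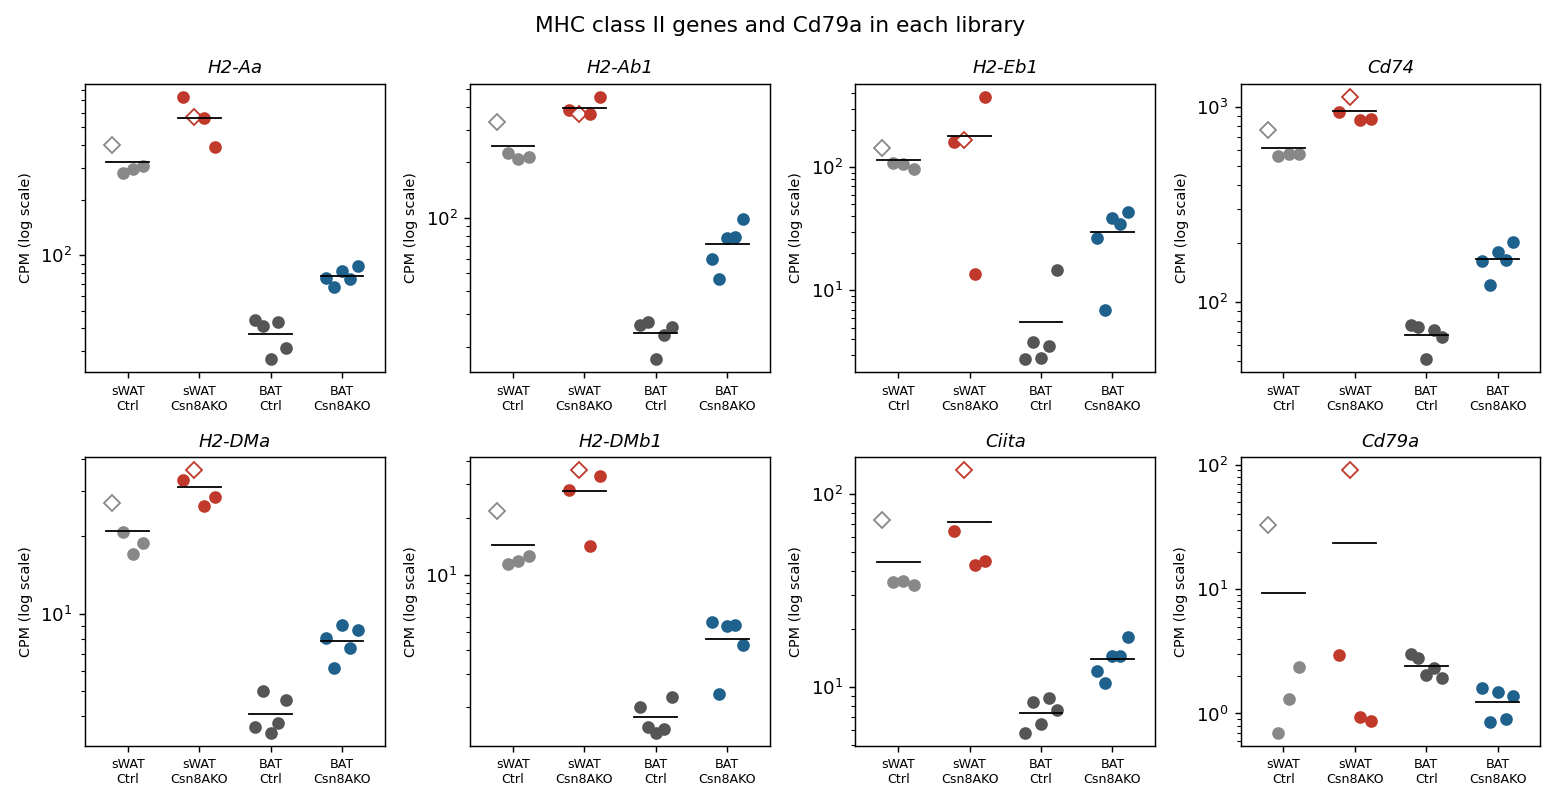
CPM of the 7 class II genes and of *Cd79a* in each library (points, log axis) by tissue and genotype, with the group mean as a line; open diamonds mark sWAT Ctrl 1 and sWAT *Csn8* AKO 2. *Cd74* stood between 563 and 1128 CPM in sWAT and between 51.2 and 202 CPM in BAT, where all *Csn8* AKO libraries lay above the Ctrl libraries.

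In sWAT, the alpha chain *H2-Aa* had 399, 283, 296 and 306 CPM in Ctrl 1 to 4 and 732, 564, 561 and 391 CPM in *Csn8* AKO 1 to 4. *Csn8* AKO 1 was the highest, and the groups overlapped where *Csn8* AKO 4 lay just under the lymphocyte-rich Ctrl 1. The beta chain *H2-Ab1*, its partner in the I-A dimer, had 329, 225, 208 and 213 CPM in Ctrl and 385, 364, 366 and 452 CPM in *Csn8* AKO. Every *Csn8* AKO library exceeded every Ctrl library, among which Ctrl 1 stood out upward. *H2-Eb1*, the beta chain of the I-E dimer, had 145, 108, 107 and 97.1 CPM in Ctrl and 159.7, 167, 13.5 and 374 CPM in *Csn8* AKO. Here *Csn8* AKO 3 was far below and *Csn8* AKO 4 far above all other sWAT libraries.

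*Cd74*, the invariant chain, had 766, 563, 573 and 572 CPM in Ctrl and 942, 1128, 860.1 and 872 CPM in *Csn8* AKO. The groups did not overlap, and the highest library of each group was the lymphocyte-rich one. *H2-DMa* had 26.8, 20.7, 17.0 and 18.9 CPM in Ctrl and 33.0, 35.9, 26.3 and 28.4 CPM in *Csn8* AKO, while its partner *H2-DMb1* had 21.7, 11.4, 11.9 and 12.5 and 27.9, 35.4, 14.1 and 33.1 CPM. For both editors the only overlap was between Ctrl 1 and *Csn8* AKO 3. *Ciita* had 73.7, 34.8, 35.5 and 33.6 CPM in Ctrl and 64.4, 132, 43.0 and 44.9 CPM in *Csn8* AKO. The lymphocyte-rich *Csn8* AKO 2 and Ctrl 1 were the highest of the 8 libraries, and the 6 others separated by genotype.

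With the 8 sWAT libraries in a fit of their own, none of the 7 genes was called by edgeR in either direction, where 2.30% of the 18843 genes tested were called higher and 3.00% lower. At an unadjusted p under 0.05, 5 of the 7 were higher and 0 lower, with 9.88% of all genes tested higher at this threshold. DESeq2 called 4 of the 7 higher, with 3.97% of the genes to which it gave an adjusted p. When edgeR fitted all 4 groups together it called 5 of the 7 higher, with 4.64% of all genes, and with no filter on low counts 1 of the 7, with 1.16% of all genes. The log2 fold change of *Csn8* AKO against Ctrl was 0.81 (SE 0.22, adjusted p = 0.0600) for *H2-Aa*, 0.69 (SE 0.19, adjusted p = 0.0695) for *H2-Ab1* and 0.63 (SE 0.20, adjusted p = 0.0992) for *Cd74*. It was 0.95 (SE 0.32, adjusted p = 0.126) for *H2-DMb1* and 0.58 (SE 0.18, adjusted p = 0.100) for *H2-DMa*. *Ciita* (0.70, SE 0.44, adjusted p = 0.439) and *H2-Eb1* (0.65, SE 0.78, adjusted p = 0.707) had the widest errors. The value of *Ciita* was 0.18 without *Csn8* AKO 2 (132 CPM) and 1.08 without Ctrl 1 (73.7 CPM). That of *H2-Eb1* was -0.0033 without *Csn8* AKO 4 (374 CPM) and 1.03 without *Csn8* AKO 3 (13.5 CPM). The groups did not overlap for *H2-Ab1* and *Cd74*, 2 of the 7, where 5.64% of all genes tested were higher in this sense. The median over the 7 was 0.69, against 0.032 over all genes tested.

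Without sWAT Ctrl 1 and *Csn8* AKO 2, 3 libraries a group remained, and 5 of the 7 genes were called higher: *H2-Ab1* at 0.91 (SE 0.15, adjusted p = 0.00482), *H2-Aa* at 0.93 (SE 0.21, adjusted p = 0.0211), *H2-DMa* at 0.64 (SE 0.15, adjusted p = 0.0215), *Cd74* at 0.65 (SE 0.15, adjusted p = 0.0225) and *H2-DMb1* at 1.08 (SE 0.27, adjusted p = 0.0406). Over all genes 5.35% of 18547 were called higher there. *Ciita* (0.56, SE 0.16, adjusted p = 0.0565) and *H2-Eb1* (0.82, SE 1.14, adjusted p = 0.740) were not called. The *Csn8* AKO libraries left include *Csn8* AKO 3 and *Csn8* AKO 4, with 31.8% and 47.8% of their counts in ribosomal RNA genes. Those genes were left out only in fits that kept all libraries. The 3 remaining Ctrl libraries lay close together, with 569 ± 5.55 CPM of *Cd74* against 891 ± 44.4 in *Csn8* AKO and 34.6 ± 0.957 CPM of *Ciita* against 50.8 ± 11.8 (mean ± SD, n = 3). For 6 of the 7, all but *H2-Eb1*, the *Csn8* AKO libraries lay above the Ctrl libraries, a separation that 14.8% of the genes showed in this direction. Leaving out single libraries also moved the count of members called: it was 4 without Ctrl 1 (766 CPM of *Cd74*), with 377 of all genes called higher, and 1 without *Csn8* AKO 4 (872 CPM of *Cd74*), with 391. With the B cell marker level as a covariate over all 8 libraries, 6 of the 7 were called higher, with 5.76% of all genes.

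In BAT, *H2-Aa* had 44.5, 41.0, 27.3, 43.2 and 31.1 CPM in Ctrl 1 to 5 and 75.6, 67.1, 82.1, 74.4 and 87.6 CPM in *Csn8* AKO 1 to 5. *H2-Ab1* had 26.1, 27.3, 17.2, 23.1 and 25.6 CPM in Ctrl and 59.7, 46.6, 77.2, 78.9 and 98.5 CPM in *Csn8* AKO. For both chains of the I-A dimer all *Csn8* AKO libraries lay above all Ctrl libraries, and *Csn8* AKO 2 was the lowest of its group. *H2-Eb1* had 2.78, 3.81, 2.84, 3.51 and 14.7 CPM in Ctrl and 26.7, 6.87, 38.7, 34.9 and 43.2 CPM in *Csn8* AKO. Here the groups overlapped, since Ctrl 5 lay above *Csn8* AKO 2.

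The invariant chain *Cd74* had 76.1, 74.2, 51.2, 72.2 and 66.2 CPM in BAT Ctrl and 163, 122, 182, 165 and 202 CPM in BAT *Csn8* AKO. The lowest *Csn8* AKO library, *Csn8* AKO 2, lay well above the highest Ctrl library. *H2-DMa* had 3.64, 5.02, 3.46, 3.75 and 4.63 CPM in Ctrl and 8.03, 6.18, 9.08, 7.39 and 8.62 CPM in *Csn8* AKO, and *H2-DMb1* 2.00, 1.58, 1.47, 1.54 and 2.27 and 5.60, 2.36, 5.33, 5.46 and 4.26 CPM. *H2-DMb1* of *Csn8* AKO 2 exceeded that of Ctrl 5 by little. *Ciita* had 5.80, 8.31, 6.41, 8.73 and 7.63 CPM in Ctrl and 12.1, 10.5, 14.6, 14.4 and 18.2 CPM in *Csn8* AKO, again without overlap.

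All 7 genes were called higher in *Csn8* AKO BAT, where 16.0% of the 22345 genes tested were called higher and 15.8% lower. The log2 fold change was 1.32 (SE 0.14, adjusted p = 1.23e-05) for *Cd74*, 1.62 (SE 0.19, adjusted p = 8.16e-05) for *H2-Ab1* and 1.07 (SE 0.13, adjusted p = 4.63e-05) for *H2-Aa*, which corresponds to 2.49-, 3.07- and 2.10-fold. *H2-DMb1* rose by 1.41 (SE 0.23, adjusted p = 3.39e-04), *H2-DMa* by 0.96 (SE 0.15, adjusted p = 2.78e-04) and *Ciita* by 0.94 (SE 0.16, adjusted p = 5.03e-04) on the log2 scale. *H2-Eb1* had the largest and least precise change, 2.46 (SE 0.65, adjusted p = 0.0203), and its adjusted p was 0.0516 without Ctrl 2 (3.81 CPM) and 0.0506 without Ctrl 4 (3.51 CPM). Without Ctrl 5, at 14.7 CPM, the log2 fold change of *H2-Eb1* was 3.24 (SE 0.50, adjusted p = 0.00176). The groups did not overlap for 6 of the 7, against 9.50% of all genes tested in this direction. The median over the 7 was 1.32, against 0.0063 over all genes tested.

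Whether the effect of *Csn8* AKO on class II genes differed between the tissues was tested with an interaction term. None of the 7 genes was called by edgeR, where 1.61% of 22509 genes were called higher in BAT and 0.755% lower. At an unadjusted p under 0.05, 2 of the 7 were higher in BAT and 0 lower, *H2-Ab1* at 0.91 (SE 0.27, adjusted p = 0.0829) and *Cd74* at 0.67 (SE 0.22, adjusted p = 0.127). At that threshold 8.65% of all genes tested were higher in BAT. DESeq2 called these 2 genes, with adjusted p-values of 0.0270 and 0.0373, where it called 3.39% of the genes with an adjusted p higher. With edgeR the same call was made for both without BAT *Csn8* AKO 2, which had 46.6 CPM of *H2-Ab1* and 122 CPM of *Cd74*. The effects on *H2-Aa* differed by 0.24 (SE 0.24, adjusted p = 0.711) and those on *Ciita* by 0.24 (SE 0.43, adjusted p = 0.863). Over left-out libraries these ran from 0.10 to 0.40 for *H2-Aa* and from -0.11 to 0.73 for *Ciita*, and neither was called.

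**Figure D2:**
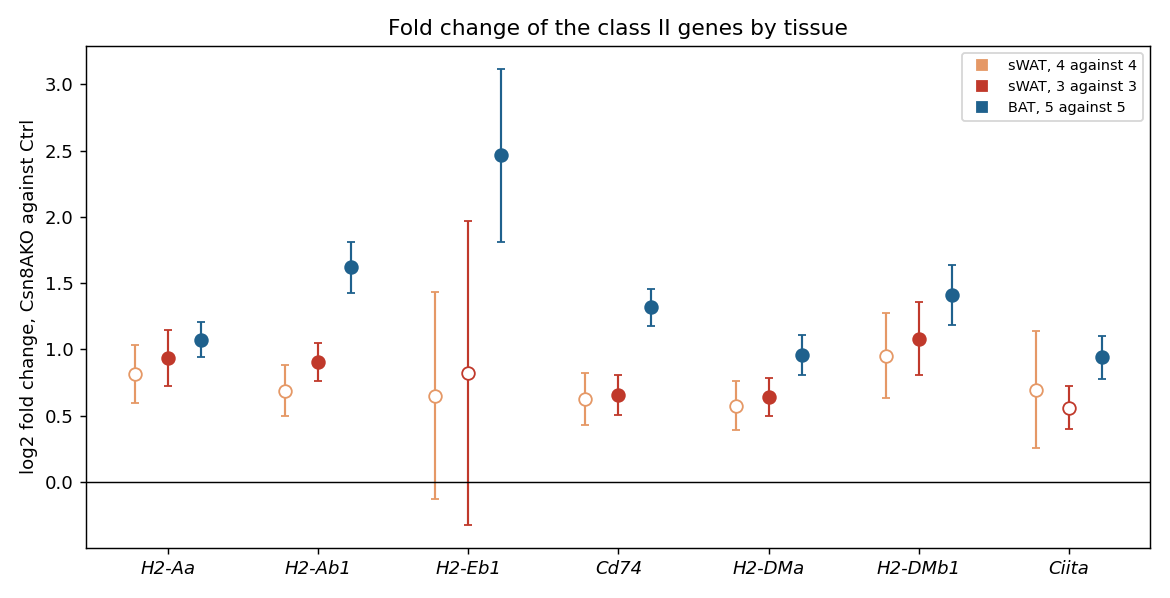
Log2 fold change of *Csn8* AKO against Ctrl for the 7 genes (points, bars show the SE) in sWAT with all libraries, in sWAT without Ctrl 1 and *Csn8* AKO 2, and in BAT; filled points had an adjusted p under 0.05. *Cd74* stood at 0.63, 0.65 and 1.32 in this order.

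The members did not keep fixed proportions, and *H2-Eb1* varied most against the rest. Its ratio to *H2-Ab1*, per kb, was 0.581, 0.632, 0.682 and 0.601 in sWAT Ctrl 1 to 4 and 0.548, 0.606, 0.0486 and 1.09 in sWAT *Csn8* AKO 1 to 4. In BAT it was 0.140, 0.184, 0.218, 0.201 and 0.759 in Ctrl 1 to 5 and 0.590, 0.195, 0.663, 0.584 and 0.580 in *Csn8* AKO 1 to 5. In sWAT, *Csn8* AKO 3 was thus far below and *Csn8* AKO 4 above the rest, and in BAT, Ctrl 5 was with 4 *Csn8* AKO libraries and *Csn8* AKO 2 with 4 Ctrl libraries. Over the 18 libraries the ratio spanned 22.5-fold. The ratios of the others to *H2-Ab1* spanned 3.80-fold for *Ciita*, 3.20-fold for *H2-DMa*, 2.52-fold for *H2-DMb1*, 2.19-fold for *H2-Aa* and 1.62-fold for *Cd74*, and that of *H2-DMa* to *H2-DMb1* 3.71-fold. The ratio of *H2-Aa* to *H2-Ab1* was lowest, at 0.586, in sWAT *Csn8* AKO 4, followed by BAT *Csn8* AKO 5 (0.602) and BAT *Csn8* AKO 4 (0.637). The pseudogene *H2-Ea-ps* had no count in sWAT *Csn8* AKO 4 and 2.65 to 9.09 CPM in the 7 other sWAT libraries. In BAT *Csn8* AKO 5 and 4 it had 0.609 and 0.786 CPM.

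The class I gene *H2-K1*, on the same chromosome, also divided the BAT libraries, but not as the ratio of *H2-Eb1* to *H2-Ab1* did. It had 1359, 1114, 1579, 1507 and 699 CPM in Ctrl 1 to 5 and 570.4, 766, 500.5, 449 and 556 CPM in *Csn8* AKO 1 to 5, so Ctrl 5 lay below *Csn8* AKO 2. Both lay between the other Ctrl and the other *Csn8* AKO libraries. In sWAT it had 841, 1138, 726 and 749 CPM in Ctrl 1 to 4 and 775, 761, 731 and 1201 CPM in *Csn8* AKO 1 to 4. *H2-D1* did not divide the BAT libraries in this way, with 644, 544, 503, 594 and 443 CPM in Ctrl and 656, 652, 569, 545 and 768 CPM in *Csn8* AKO. Class II genes are among the most polymorphic of the mouse, and the H2 haplotype of each mouse was not given in the sources used here, so its part in the values of *H2-Eb1* and *H2-K1* was not tested. *Cd74* and *Ciita* lie on other chromosomes, 18 and 16, than the H2 genes on 17. In BAT Ctrl 5 they stood at 66.2 and 7.63 CPM, within the range of the other Ctrl libraries, and in BAT *Csn8* AKO 2 at 122 and 10.5 CPM, above all Ctrl libraries.

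**Figure D3:**
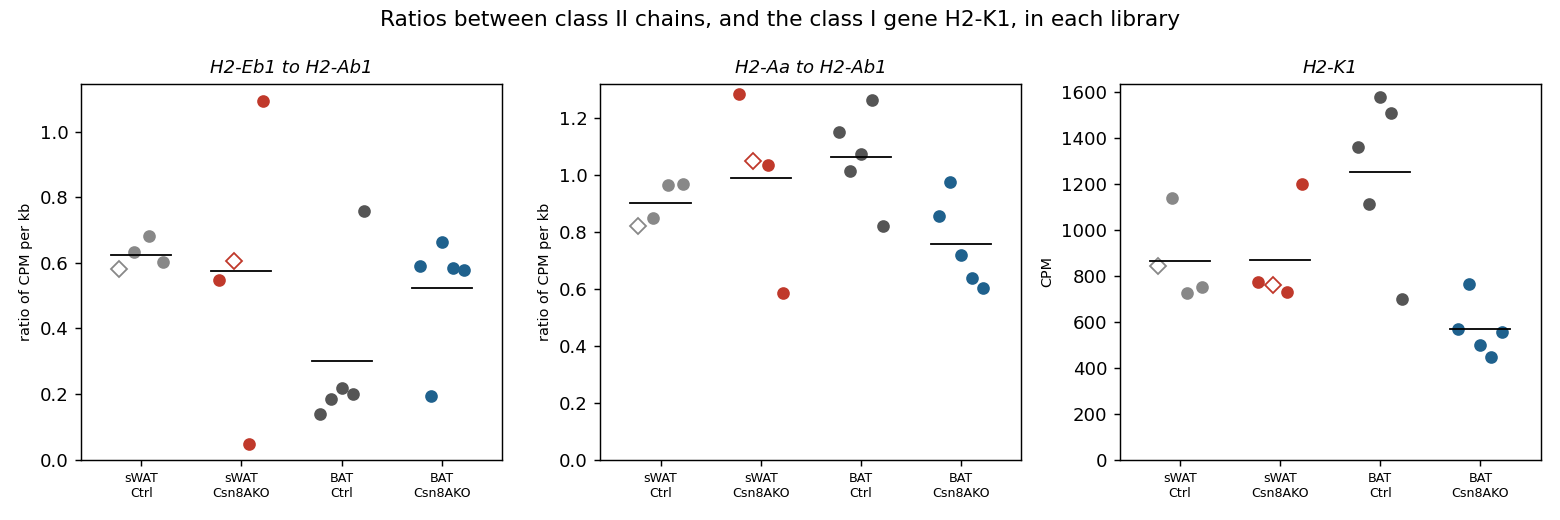
Ratio of *H2-Eb1* to *H2-Ab1* and of *H2-Aa* to *H2-Ab1*, both as CPM per kb, and CPM of *H2-K1* in each library (points) with group means (lines); open diamonds mark sWAT Ctrl 1 and sWAT *Csn8* AKO 2. The ratio of *H2-Eb1* to *H2-Ab1* ran from 0.0486 in sWAT *Csn8* AKO 3 to 1.09 in sWAT *Csn8* AKO 4.

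The genes lie in GRCm38 at chr17:34282744-34287823 (*H2-Aa*, minus strand), chr17:34257689-34269419 (*H2-Ab1*), chr17:34305867-34316674 (*H2-Eb1*), chr17:34119541-34139101 (*H2-DMa*), chr17:34153072-34160230 (*H2-DMb1*), chr16:10480059-10528418 (*Ciita*) and chr18:60803848-60812652 (*Cd74*), the last 6 on the plus strand. Exons of *H2-DMa* overlap those of *Brd2* and exons of *Ciita* those of *Dexi*, each on the opposite strand. Strand use in counting was not stated, and without it reads of these stretches were ambiguous and not counted. *H2-DMb1* and *H2-DMb2* are close copies in sequence, and reads that fit both were not counted, so the level of each is uncertain.

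Of the 6 relatives listed, 5 were in the files: *H2-DMb2*, the chains *H2-Oa* and *H2-Ob* of the H2-DO dimer that restrains H2-DM in B cells, the beta chain *H2-Eb2* and *H2-Ea-ps*. In sWAT, 4 of the 5, all but *H2-Ea-ps*, had their highest levels in the lymphocyte-rich *Csn8* AKO 2 and Ctrl 1. *H2-Ob* had 23.2, 2.00, 2.41 and 1.98 CPM in sWAT Ctrl 1 to 4 and 5.04, 57.7, 1.88 and 3.98 CPM in sWAT *Csn8* AKO 1 to 4. *H2-DMb2* had 27.2, 5.86, 6.02 and 7.46 and 14.0, 62.0, 18.7 and 4.99 CPM. *H2-Oa* reached 3.40 and 7.50 CPM and *H2-Eb2* 4.93 and 9.72 CPM in Ctrl 1 and *Csn8* AKO 2, against at most 0.636 and 1.36 CPM in the other sWAT libraries. In sWAT none of the 4 relatives tested was called by edgeR, 0 had an unadjusted p under 0.05, and DESeq2 called 0 of the 2 to which it gave an adjusted p. In BAT, 1 of 3 tested was called higher, *H2-DMb2* at 0.68 (SE 0.24, adjusted p = 0.0387), with overlapping groups. Of all genes tested, 2.30% were called higher in sWAT and 16.0% in BAT.

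The counts of the lists that follow stand against shares called of 2.30% of all genes higher and 3.00% lower in sWAT, and of 16.0% higher and 15.8% lower in BAT. At an unadjusted p under 0.05, 1862 of 18843 genes were higher and 1976 lower in sWAT, and 4702 and 4619 of 22345 in BAT. DESeq2 called 841 higher and 974 lower of 21199 genes with an adjusted p in sWAT, and 4104 and 3945 of 27088 in BAT. Of the 7 genes of the RFX, NF-Y and CREB complex, 0 were called in sWAT and 1 in BAT, *Nfya*, a subunit of NF-Y, at 0.37 (SE 0.10, adjusted p = 0.0153). In sWAT, 1 had an unadjusted p under 0.05 in each direction, and DESeq2 called 0. *Nfyc*, the most abundant per kb, had 18.9 ± 1.49 CPM in sWAT Ctrl and 16.6 ± 2.35 CPM in sWAT *Csn8* AKO (mean ± SD, n = 4). The median over the 7 was 0.15 in sWAT and 0.0077 in BAT.

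Interferon gamma is the classical inducer of *Ciita*, and its own transcript *Ifng* had at most 0.0909 CPM in any library. Of its axis, 2 of 10 genes tested were called higher in sWAT and 2 of 11 in BAT. With edgeR 0 were called lower in either tissue, 0 in sWAT and 1 in BAT were lower at an unadjusted p under 0.05, and DESeq2 called 0 and 1 lower. *Spi1*, which encodes the myeloid factor PU.1, rose in both, at 1.10 (SE 0.21, adjusted p = 0.0192) in sWAT and 1.51 (SE 0.22, adjusted p = 1.48e-04) in BAT. The others were the receptor chain *Ifngr2* in sWAT (0.50, SE 0.12, adjusted p = 0.0369) and the myeloid factor *Irf8* in BAT (1.27, SE 0.15, adjusted p = 3.76e-05). *Ifngr1*, the most abundant gene of the list per kb, was at -0.071 (SE 0.15, adjusted p = 0.846) in sWAT and -0.22 (SE 0.14, adjusted p = 0.247) in BAT. The list's median was 0.29 in sWAT and 0.12 in BAT.

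Of the 12 genes of antigen processing in the class II pathway, 3 were called higher and 0 lower in sWAT, and 7 higher and 3 lower in BAT. The shares over all genes were 2.30% of all genes higher and 3.00% lower in sWAT, and 16.0% higher and 15.8% lower in BAT. *Ctss*, the cathepsin that makes the final cleavage of the invariant chain, rose from 5.13 ± 0.722 to 46.8 ± 8.02 CPM in BAT (mean ± SD, n = 5), a log2 fold change of 3.21 (SE 0.14, adjusted p = 6.90e-09). In sWAT it rose from 53.3 ± 11.0 to 162 ± 30.9 CPM (n = 4), at 1.61 (SE 0.20, adjusted p = 0.00285). *Lgmn*, an endosomal asparaginyl protease, rose in sWAT (1.15, SE 0.17, adjusted p = 0.00648) and in BAT (0.72, SE 0.068, adjusted p = 4.96e-06). *March1*, the ligase that sends class II and CD86 to degradation, rose in sWAT at 1.17 (SE 0.21, adjusted p = 0.0126) and in BAT at 1.36 (SE 0.15, adjusted p = 2.14e-05). *March8*, a related ligase, fell in BAT at -0.43 (SE 0.065, adjusted p = 1.98e-04) and was at -0.30 (SE 0.16, adjusted p = 0.337) in sWAT, with an interaction of -0.15 (SE 0.17, adjusted p = 0.750). The tetraspanins moved apart in BAT, *Cd63* at 1.62 (SE 0.10, adjusted p = 1.12e-07) and *Cd82* at -0.86 (SE 0.14, adjusted p = 4.34e-04), and *Sppl2a*, the protease that clears the remnant of CD74 from the membrane, was lower at -0.25 (SE 0.07, adjusted p = 0.0147). *Ctsd* was the most abundant per kb in BAT (0.60, SE 0.094, adjusted p = 2.61e-04) and *Ctsb* in sWAT (0.32, SE 0.22, adjusted p = 0.479). The list's median was 0.45 in sWAT and 0.45 in BAT.

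Costimulatory genes, whose products act beside class II at the T cell contact, gave 1 of 7 tested called higher in sWAT and, in BAT, 2 higher and 1 lower of 6. *Cd83*, a maturation marker of dendritic cells, rose in sWAT (0.87, SE 0.15, adjusted p = 0.0120) and BAT (1.60, SE 0.24, adjusted p = 1.97e-04). *Icosl* rose in BAT (1.13, SE 0.17, adjusted p = 1.81e-04), where *Cd274*, which encodes the inhibitory ligand PD-L1, fell (-0.67, SE 0.14, adjusted p = 0.00269). In the class I pathway, 0 of 17 genes were called in sWAT by edgeR or DESeq2. At an unadjusted p under 0.05, 0 were higher and 2 lower there, against 1862 and 1976 of 18843 genes. In BAT, 1 was called higher and 5 lower. The 1 was *B2m*, the light chain of class I (0.34, SE 0.12, adjusted p = 0.0481), and among the 5 were *Tapbpl* (-0.82, SE 0.10, adjusted p = 4.41e-05), *H2-K1* (-1.12, SE 0.21, adjusted p = 0.00116) and the peptide-trimming *Erap1* (-0.38, SE 0.078, adjusted p = 0.00197). In sWAT *B2m*, there the most abundant of the list per kb, was at -0.18 (SE 0.19, adjusted p = 0.661). The median of the class I list was -0.07 in sWAT and -0.062 in BAT, against 0.69 and 1.32 for the class II members.

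Markers of cells that carry class II were also higher in *Csn8* AKO in part. Of 20 macrophage markers tested in sWAT, edgeR called 10 higher and 0 lower, and of 19 tested in BAT, 14 higher and 0 lower. At an unadjusted p under 0.05, 0 were lower in sWAT and 1 in BAT, and DESeq2 called 0 and 1 lower. In sWAT without the 2 lymphocyte-rich libraries, edgeR called 13 of 20 higher, with 5.35% of all genes. Summed, they reached 1367, 1469, 1704 and 1898 CPM in sWAT Ctrl 1 to 4 and 3823, 2181, 3747 and 2639 CPM in sWAT *Csn8* AKO 1 to 4. In BAT they reached 259.7, 292, 222, 325 and 328 CPM in Ctrl 1 to 5 and 626, 551, 656, 594 and 756 CPM in *Csn8* AKO 1 to 5. The *Csn8* AKO libraries lay above the Ctrl libraries in both tissues, and *Lyz2* was the most abundant, with 232 to 1215 CPM in sWAT and 17.1 to 206 in BAT. The macrophage receptor gene *Adgre1* rose at 1.31 (SE 0.14, adjusted p = 0.00180) in sWAT and 1.63 (SE 0.16, adjusted p = 6.29e-06) in BAT, and *Csf1r* and *C1qa* rose in BAT, at 1.07 (SE 0.11, adjusted p = 8.80e-06) and 1.49 (SE 0.11, adjusted p = 7.46e-07). In sWAT, *Csf1r* was at 0.61 (SE 0.22, adjusted p = 0.147) and *C1qa* at 0.79 (SE 0.25, adjusted p = 0.100). By the interaction, edgeR called 3 of the 20 macrophage markers higher in BAT and 1 lower, against 1.61% and 0.755% of all genes. Without the 2 lymphocyte-rich libraries it called 5 higher and 0 lower, against 464 and 276 of 22873 genes. At an unadjusted p under 0.05, 1 was lower there. DESeq2 with all libraries called 6 higher and 1 lower, against 741 and 355 of 21828 genes.

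Of 16 dendritic cell markers, edgeR called 2 higher and 0 lower in sWAT and 8 higher and 0 lower in BAT, and 0 were lower in either tissue at an unadjusted p under 0.05 or by DESeq2. In sWAT without the 2 lymphocyte-rich libraries, 5 of 16 were called higher, where 5.35% of all genes were. Their median there was 0.79, against 0.54 with all libraries. Their sum was 321, 243, 245 and 260.0 CPM in sWAT Ctrl and 449, 456, 486 and 401 CPM in sWAT *Csn8* AKO, and 144, 131, 118, 119.8 and 106 CPM in BAT Ctrl and 188, 132, 163, 173 and 180.1 CPM in BAT *Csn8* AKO. The sWAT groups were separate, while in BAT *Csn8* AKO 2 lay within the Ctrl range. Here *Sirpa* led in sWAT (97.6 to 246 CPM) and *Zbtb46*, also expressed by endothelium, in BAT (39.0 to 55.0 CPM). The integrin gene *Itgax* rose at 1.72 (SE 0.29, adjusted p = 0.00930) in sWAT and 2.37 (SE 0.21, adjusted p = 3.46e-06) in BAT. The progenitor receptor gene *Flt3* rose in BAT at 1.15 (SE 0.28, adjusted p = 0.00617) and stood at 0.78 (SE 0.63, adjusted p = 0.554) in sWAT. *Zbtb46* was at -0.31 (SE 0.14, adjusted p = 0.249) in sWAT and 0.03 (SE 0.10, adjusted p = 0.859) in BAT. Of the monocyte markers, led by *Ccr2*, 1 of 5 was called higher in sWAT and 3 of 4 in BAT. By the interaction, edgeR called 0 of the 16 dendritic cell markers, with 2 higher and 0 lower at an unadjusted p under 0.05, and DESeq2 called 1 higher.

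Of 18 B cell markers tested in sWAT, edgeR called 0, with 2 higher and 0 lower at an unadjusted p under 0.05. Without the 2 lymphocyte-rich libraries it called 2 of 17 higher, with 5.35% of all genes. With all libraries DESeq2 gave an adjusted p to 3 of the 18 and called 1 of these higher, and *Cd79a* was at 1.37 (SE 1.89, adjusted p = 0.751). In BAT, 3 of 16 were called higher and 1 lower, *Cd79a*, at -0.93 (SE 0.22, adjusted p = 0.00568), while *Ms4a1* was at 0.45 (SE 0.47, adjusted p = 0.508). Of all genes in BAT, 16.0% were called higher, near the share of these markers, and 15.8% lower. Over both genotypes the T cell markers were led by *Tcf7* in sWAT and *Cd4* in BAT. In BAT Ctrl alone *Cd247* led with a mean of 2.65 CPM, above *Tcf7* (2.05) and *Cd4* (1.14), and *Cd4* had 4.56 in BAT *Csn8* AKO. The T cell markers summed to 644, 26.4, 21.0 and 44.4 CPM in sWAT Ctrl and 79.6, 787, 24.0 and 27.1 CPM in sWAT *Csn8* AKO, high in the lymphocyte-rich libraries. Of them edgeR called 0 of 18 in sWAT, with 0 at an unadjusted p under 0.05 and no adjusted p from DESeq2 (without the 2 lymphocyte-rich libraries 0 called and 3 higher at an unadjusted p under 0.05, with 2452 of 18547 genes), and 5 of 17 higher in BAT, *Cd3e* at 1.00 (SE 0.27, adjusted p = 0.0109). Of lymph node stroma markers, led over both genotypes by *Cxcl13* in sWAT and *Enpp6* in BAT, edgeR called 0 of 2 tested in sWAT, with 2 higher at an unadjusted p under 0.05 and 1 called by DESeq2, and 1 of 2 was called higher in BAT. In BAT Ctrl alone the mean of *Glycam1* was 0.789 CPM, against 0.775 of *Enpp6*.

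Adipocyte markers, led over both genotypes by *Lpl*, gave 0 of 10 higher and 3 lower in sWAT and 1 higher and 2 lower in BAT. In BAT Ctrl alone *Fabp4* had the higher mean, 4459 CPM against 4312 of *Lpl*. *Adipoq* was at -0.68 (SE 0.26, adjusted p = 0.173) and *Plin1* at -0.94 (SE 0.31, adjusted p = 0.114) in sWAT, and at 0.092 (SE 0.09, adjusted p = 0.474) and 0.16 (SE 0.092, adjusted p = 0.206) in BAT. Of brown adipocyte markers, led over both genotypes by *Cox8b* in sWAT and *Ucp1* in BAT, 2 of 6 were lower in sWAT, and 1 higher and 1 lower of 8 in BAT, where *Ucp1* was at 0.53 (SE 0.27, adjusted p = 0.167). In sWAT Ctrl alone *Cidea* had the higher mean, 41.6 CPM against 33.9 of *Cox8b*, and in sWAT *Csn8* AKO 0.227 against 8.96. Of endothelial markers, led over both genotypes by *Cdh5*, edgeR called 0 of 10 in sWAT, with 0 higher and 1 lower at an unadjusted p under 0.05 and 1 lower by DESeq2, and 3 higher in BAT, with *Pecam1* at 0.32 (SE 0.11, adjusted p = 0.0325). In sWAT *Csn8* AKO alone the mean of *Pecam1* was 109 CPM, against 108 of *Cdh5*. Over both genotypes skeletal muscle markers were led by *Myh4* in sWAT and *Myl1* in BAT. In BAT *Csn8* AKO alone *Myh4* had the higher mean, 28.7 CPM against 10.8 of *Myl1*, with 51.4 and 92.0 CPM in *Csn8* AKO 1 and 5. The muscle markers gave 0 of 10 called in sWAT by edgeR and by DESeq2, with 0 at an unadjusted p under 0.05, and 2 higher and 1 lower of 6 in BAT, where DESeq2 called 8 higher and 1 lower of 10. Their sum was 199.6, 653, 3084 and 387 CPM in sWAT Ctrl 1 to 4 and 132, 51.9, 401 and 1858 CPM in sWAT *Csn8* AKO 1 to 4, with Ctrl 3 and *Csn8* AKO 4 far above the rest. In BAT it was 40.2, 34.6, 37.3, 28.2 and 28.1 CPM in Ctrl 1 to 5 and 142, 11.1, 12.6, 11.5 and 245 CPM in *Csn8* AKO 1 to 5, where *Csn8* AKO 1 and 5 lay above and *Csn8* AKO 2 to 4 below all Ctrl libraries. All 7 class II genes were called higher in BAT also without *Csn8* AKO 1 and, in another fit, without *Csn8* AKO 5. Over left-out BAT libraries 2948 to 4040 of all genes were called higher, the fewest without *Csn8* AKO 5. The sWAT fits with the B cell covariate, whose markers include *Ebf1* and *Ighm*, and without the 2 lymphocyte-rich libraries give no share for B cells. The part of these cell types in the class II values was not tested.

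Within groups, the members followed each other to different degrees. After the mean of each of the 4 groups was subtracted from the log2 CPM of the 18 libraries, Pearson's r of a member with the mean of the other 6 ran from 0.244 for *H2-Aa* to 0.853 for *H2-DMb1*, with 0.754 for *Cd74* and 0.616 for *Ciita*. Among 13542 other genes, those most like the mean of the 7 were *H2-Q5* (r = 0.872), *Casp8* (0.848), *Nr5a2* (0.843), *Gsap* (0.837) and *Dusp6* (0.827). These values share libraries and their scaling and are given as a description. The lymphocyte-rich sWAT libraries are among them, and r was not calculated without those libraries. Each of those was the highest of its group for *Cd74*, *Ciita*, *H2-DMa* and *H2-DMb1*. For *H2-Aa*, *H2-Ab1* and *H2-Eb1* this did not hold in *Csn8* AKO. Their part in the values of r and in the choice of the genes named was not tested.

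As a description, the promoters of the members and relatives were searched for the letters of the elements that the CIITA complex is known to use. RefSeq windows of GRCm38.p6, from 250 bases before to 50 after the start, were at hand for 4 of the 7 members and 4 relatives; *H2-Ab1*, *Cd74*, *Ciita* and *H2-Ea-ps* are named only. Searched on both strands, ATTGG, the inverted CCAAT box bound by NF-Y, was in a window of all 8 genes, and in 37.4% of all 32851 windows. The X box letters CCNNGNNAC were in 6 of the 8 and in 47.4% of all windows. CCNNGNNAC followed after 15 to 40 bases by ATTGG on the same strand was in 3 of the 8, *H2-DMb1*, *H2-Oa* and *H2-Ob*, and in 1.46% of all windows. After the sequences had been seen, the letters GNAAC were searched at the same distance before ATTGG. They are the last 5 of the X box letters with another A fixed. This pair was in 6 of the 8, counted on the gene's strand before the start. It was in 4.23% of all windows, counted on either strand and anywhere in the window. Since the letters were picked after these sequences were seen, the 2 values make no test. The 150 bases before the start of 2 members with this pair follow, 5′ to 3′ on the gene's strand, with GNAAC and ATTGG in capitals; they lie at chr17:34287824-34287973 (*H2-Aa*, minus strand) and chr17:34305717-34305866 (*H2-Eb1*, plus strand).
H2-Aa: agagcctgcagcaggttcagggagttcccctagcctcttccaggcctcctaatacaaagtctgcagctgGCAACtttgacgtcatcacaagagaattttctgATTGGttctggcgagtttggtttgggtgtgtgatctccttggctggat
H2-Eb1: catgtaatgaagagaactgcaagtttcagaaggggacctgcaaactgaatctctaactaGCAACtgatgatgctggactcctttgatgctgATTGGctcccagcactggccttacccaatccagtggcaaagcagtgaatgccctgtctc
Between the capitals lay 28 bases in *H2-Aa*, 27 in *H2-Eb1* and 28 in *H2-DMb1*, and ATTGG began 48, 59 and 61 bases before the RefSeq start, which for *H2-DMb1* lies inside the gene as Ensembl places it. *H2-Ob* (25 bases between), *H2-Oa* (28) and *H2-Eb2* (27) held the pair as well, and *H2-DMa* and *H2-DMb2* did not. A match describes letters and is no evidence of binding.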

How the data were processed

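According to the authors, ribosomal RNA was depleted, paired reads were aligned with STAR to Ensembl release 101 (GRCm38), and the count of each gene is of uniquely aligned, unambiguous reads by featureCounts, deposited without normalization. Whether counting used the strand is not stated. The deposited CPM is the count over the library total, the deposited FPKM is this CPM per length in kb, and in the deposited TPM the counts per length were brought to an equal total in all libraries. None of these 3 was used further.

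Groups were compared from the counts with edgeR 4.0.16 in R 4.3.3 (TMM factors of each comparison, robust quasi-likelihood fits, genes kept by filterByExpr with its limits of 10 counts and 15 over all libraries, and Benjamini-Hochberg over all genes tested), and with DESeq2 1.42.0 as an alternative. Printed levels use TMM factors over all 18 libraries, and groups that do not overlap were counted on these. The fits were tested on simulated data. The members and lists were chosen with earlier results of these data known. Outside the members and relatives, the genes named from a pathway list are the 3 called with the smallest adjusted p in each direction and tissue and the most abundant per kb. From a marker list they are the most abundant and the defining genes. The ratios between members, *H2-D1*, *Glycam1*, *Chst4*, *Madcam1*, *Ighm* and *Ifng*, and the values of *H2-K1* in each library, of *March1* in BAT and of *March8* in sWAT, were chosen after values were seen. Likeness is Pearson's r of log2 CPM after subtracting the mean of each tissue and genotype.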

Additional observations from a re-analysis of the deposited data

Results flagged for a closer look

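In 44 groups of 4 or 5 libraries, a library was singled out when its gap to the nearest other library was large against the range of the group (Dixon's 95% critical value). Chance singles out about 1 in 20 groups, and 11 groups were found here, several of which hold the same library. Of these, 4 restate how sWAT Ctrl 1 and *Csn8* AKO 2 were chosen, by *Cd79a* and the B cell list that holds it, and are not to be read against that rate.

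In sWAT Ctrl 1, the library was the highest of its group by 329 CPM of *H2-Ab1* (others 208 to 225), 766 CPM of *Cd74* (others 563 to 573), 73.7 CPM of *Ciita* (others 33.6 to 35.5) and 21.7 CPM of *H2-DMb1* (others 11.4 to 12.5). The same library had 32.9 CPM of *Cd79a* (others 0.701 to 2.38) and a summed B cell marker level of 739 CPM (others 287 to 314). In sWAT *Csn8* AKO 2, *Cd79a* was at 89.9 CPM (others 0.868 to 2.95) and the summed B cell marker level at 1534 CPM (others 413 to 455).

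BAT Ctrl 5 had 14.7 CPM of *H2-Eb1* (others 2.78 to 3.81) and a per-kb ratio of *H2-Eb1* to *H2-Ab1* of 0.759 (others 0.140 to 0.218). BAT *Csn8* AKO 2 had the lowest ratio of its group, 0.195 (others 0.580 to 0.663).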

How the results depend on the processing

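Apart from the counts, the fold changes of the 7 class II genes in the 4 comparisons kept their direction and their side of the threshold in 490 values over all alternatives, passed it in 30, lost it in 2 and changed sign in 2. The sign changed for *H2-Eb1* in sWAT without *Csn8* AKO 4 (-0.0033, range over left-out libraries -0.0033 to 1.03) and for *Ciita* in the interaction without sWAT Ctrl 1 (-0.11, range -0.11 to 0.73), neither of which was called. DESeq2 gave no adjusted p for *H2-Eb1* between the Ctrl tissues, so this value is not among these. In BAT all 7 were called in each alternative other than leaving out a library, where 6 or 7 were.

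In sWAT, 0 of the 7 were called higher, against 1 with no filter, 5 when the 4 groups shared a fit, 4 with DESeq2, 5 without the 2 high-*Cd79a* libraries, 6 with the B cell covariate and 0 to 4 leaving out a library. Of all genes, 434 were called higher and 566 lower in sWAT, against 106 and 328 with library size alone, 841 and 974 with DESeq2, 1044 and 1419 in one fit and 1086 and 1137 with the covariate. Without the 2 libraries 993 were higher, and leaving out a library gave 147 to 804 higher and 179 to 673 lower. With a replicate block, 134 were higher and 165 lower in sWAT, and in the interaction 208 and 89. The block pairs libraries by number, and deviations of same-numbered libraries from their group means had correlations of -0.387 to 0.223 in sWAT and -0.0975 to 0.101 in BAT, so no pairing is established.

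In the interaction, 362 genes were higher and 170 lower, against 494 and 39 with library size alone, 741 and 355 with DESeq2 and 276 lower without the 2 libraries. Leaving out a library gave 103 to 291 lower and 0 to 2 class II genes higher, and DESeq2 called 2. With library size alone, BAT had 4183 higher and 2087 lower against 3585 and 3536, and the Ctrl tissues 3781 and 6719 against 5748 and 6039. That scaling put the median log2 difference of all genes at 0.14 in BAT, 0.21 in the interaction and -0.19 between the Ctrl tissues, and DESeq2 at -0.20 in the last. For these shifts the cause was not tested.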
